A study of Mus musculus with 8 samples.

Results

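The genes described here are 33 genes of glycolysis and of the hypoxia response, measured by RNA sequencing in 8 libraries labelled as mouse tumour neutrophils. They were taken by gene symbol from a table of 25572 gene identifiers, where each had 1 entry, and were sorted by role. There were 3 transporters (Slc2a1, Slc2a3 and Slc16a3), 14 glycolytic enzymes, 3 kinases that regulate the flux through glycolysis (Pfkfb3, Pfkfb4 and Pdk1), 10 other targets of hypoxia-inducible factor (HIF), and Hif1a with the HIF prolyl hydroxylase genes Egln1 and Egln3. All 33 passed the filter on low counts and were among 13575 genes tested. The cells were labelled as neutrophils of C57/B6 mice carrying PyMT-N tumours and were sorted by flow cytometry for the surface protein ICAM1. CD54 is another name of this protein, to which leukocyte integrins bind. The ICAM1-high fraction (CD54-positive in the titles) and the ICAM1-low fraction (CD54-negative) had 4 libraries each, numbered 1, 2, 3 and 5, each made from 150 pg of total RNA. No treatment or genetic change is named in the labels, and the sources used here do not give the age of the mice, what PyMT-N stands for or whether animals were pooled. In such bulk samples, fewer cells of a type and less RNA per cell cannot be told apart.

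Glycolysis converts glucose to pyruvate and lactate in the cytosol, and neutrophils, which have few mitochondria, are known to draw most of their ATP from it. HIF is a transcription factor whose alpha subunit is marked for degradation when prolyl hydroxylases modify it in the presence of oxygen. When oxygen is low the subunit accumulates, pairs with ARNT and raises many genes of glucose uptake, glycolysis and lactate export, and its own hydroxylases among them.

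Library totals ran from 15940328 to 21825096 estimated counts. On these totals 3 counts, the floor that counting error alone allows, stood for 0.137 to 0.188 in counts-per-million units (CPM). The CPM values below use totals adjusted by a scaling factor (TMM), and the floor was higher where that factor was under 1. Icam1 mRNA was at 18.7, 9.25, 4.31 and 138 CPM in CD54-negative libraries 1, 2, 3 and 5 and at 48.2, 58.4, 42.4 and 122 CPM in the CD54-positive ones, so that the fractions overlapped (0.67 ± 0.92 on the log2 scale; edgeR adjusted p = 0.754). The library labelled CD54-negative replicate 5 was above every CD54-positive one in Icam1 mRNA, while the labels record a sort on surface protein, which mRNA does not measure. This library also had a scaling factor (TMM) of 0.718, against 0.956 to 1.17 in the other 7, and values without it are given below for the members it moved most and, for all 33, in the plot of fold changes. The 16 neutrophil markers summed to 8233 to 44930 CPM in CD54-negative and 2234 to 5158 CPM in CD54-positive libraries, and 16 and 14 of them were at 1 CPM or more in every library of each group, in that order. The 16 macrophage markers summed to 866 to 1220 CPM in CD54-negative and 5969 to 16490 CPM in CD54-positive libraries. In every CD54-positive library the macrophage sum was above the neutrophil sum, and in every CD54-negative library it was below. Markers of both cell types thus moved with the sort, and their part in the differences below was not tested.

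The DNA before the starts of these genes was searched on both strands for ACGTG, the core of the motif that HIF binds. Sequences are those of RefSeq on GRCm38.p6, which held 40 starts for 30 of the 33 genes, all but Slc2a3, Ndrg1 and Bnip3l. In the 250 bases before the start the motif was present at 20 of these 40 starts (50%), against 5444 of all 32851 starts (16.6%). By gene, it was present in 18 of 30 (60%), against 18.5% of all genes. Either ACGTG or GCGTG, a wider form of the core, was present at 80% of the members' starts, against 38.6% of all starts. The list was partly made of known HIF targets, so a higher share is not an independent result. The starts compared were also not matched for base composition. Where the letters CACGTG occur, the motif overlaps itself on the opposite strand, and this sequence is also bound by other transcription factors. The stretches below were chosen only from members that held the motif, with large and with small differences between the fractions, at the start with the most motifs. Hk1, Pfkl and Pfkp, with larger differences, held no ACGTG before any of their starts. Neither did Gapdh, Tpi1 and Eno1, with smaller ones. Capitals mark ACGTG or, on the opposite strand, CACGT, and each is written 5′ to 3′ along its gene.
Slc16a3: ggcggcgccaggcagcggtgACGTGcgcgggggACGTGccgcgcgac
Slc2a1: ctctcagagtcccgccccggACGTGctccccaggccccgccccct
Hk3: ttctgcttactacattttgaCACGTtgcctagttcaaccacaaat
Egln3: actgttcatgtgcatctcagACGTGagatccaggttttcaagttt
Pgk1: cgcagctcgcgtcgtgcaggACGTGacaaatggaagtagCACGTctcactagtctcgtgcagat
Bnip3: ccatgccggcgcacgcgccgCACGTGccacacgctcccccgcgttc

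On GRCm38.p6 these stretches lie at chr11:120949020-120949066 (Slc16a3, plus strand), chr4:119108689-119108733 (Slc2a1, plus strand), chr13:55021517-55021561 (Hk3, minus strand), chr12:54204079-54204123 (Egln3, minus strand), chrX:106186930-106186993 (Pgk1, plus strand) and chr7:138909589-138909634 (Bnip3, minus strand). Slc16a3 held 2 motifs in the last 47 bases before its start, and Pgk1 held 2 in 64 bases. A match of letters is a description of the sequence and no measure of binding.

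Between the sorted fractions, 31 of the 33 genes (against 52.3% of all genes tested) had a lower fitted level in CD54-positive cells, but none passed the threshold, an adjusted p of 0.05. Of the 33, 10 were lower by 1 or more on the log2 scale before rounding (against 22.1% of all genes), with Pkm just short of it at -0.9997, and 12 lay within 0.5 of 0. Transporters were the farthest apart, with a median log2 fold change of -2.73, while the glycolytic enzymes had a median of -0.56, the flux-regulating kinases -0.69, the other HIF targets -0.67 and Hif1a with its hydroxylases -0.71. Over all 33 the median was -0.69, against -0.07 over all genes tested. No member was called in either direction by edgeR's quasi-likelihood test, where 1.22% of all genes tested were called higher and 0.273% lower in CD54-positive libraries (1.5% in all). At an unadjusted p under 0.05, 9 of 33 were lower (27.3%, against 8.96% of all genes tested) and none higher (against 7.96%). DESeq2 called 5 members lower (4.73% of all genes) and limma-voom, run with sample weights here and below, 4 (2.77%), with Slc2a3, Hk1 and Egln3 called by both. Slc16a3 and Hk3 were called by DESeq2 only, and Ndrg1 by limma-voom only. In edgeR with no filter 1 member was called (Slc2a3; 0.469% of all genes were lower), and likewise with the replicate number as a term (Egln3; 1.92%) and without CD54-negative replicate 3 (Hk3; 0.336%). In 5 members every CD54-positive library was below every CD54-negative one, against 3.89% of all genes tested, and these were Slc2a3, Hk1, Pfkl, Higd1a and Egln3. On the scale per length, which does not use TMM, Hk1 and Higd1a overlapped, each through the library labelled CD54-negative replicate 5. In none was every CD54-positive library above (7.51% of all genes).

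The library labelled CD54-negative replicate 5 weighed on these values. It held the highest level of 20 of the 33 genes on the TMM scale (21.1% of all genes tested), of 10 with library sizes alone (13%) and of 11 per length (15.1%). Without it the median over the 33 genes was -0.31 and that of all genes 0.07, and 26 of the 33 were below 0, against 47.5% of all genes. The transporters then had a median of -1.37, the enzymes -0.28, the other HIF targets -0.62, Hif1a with its hydroxylases -0.31, and the kinases 0.06. In that fit 1 member was called, Hk1 (lower, as were 1.69% of all genes; 2.36% were higher), and 7 were lower at an unadjusted p under 0.05 (10.7% of all genes). Without both libraries numbered 5 the median was -0.45, 29 of the 33 were below 0 (49.7% of all genes), and no member was called (1.59% of all genes were higher and 1.38% lower).

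**Figure D1:**
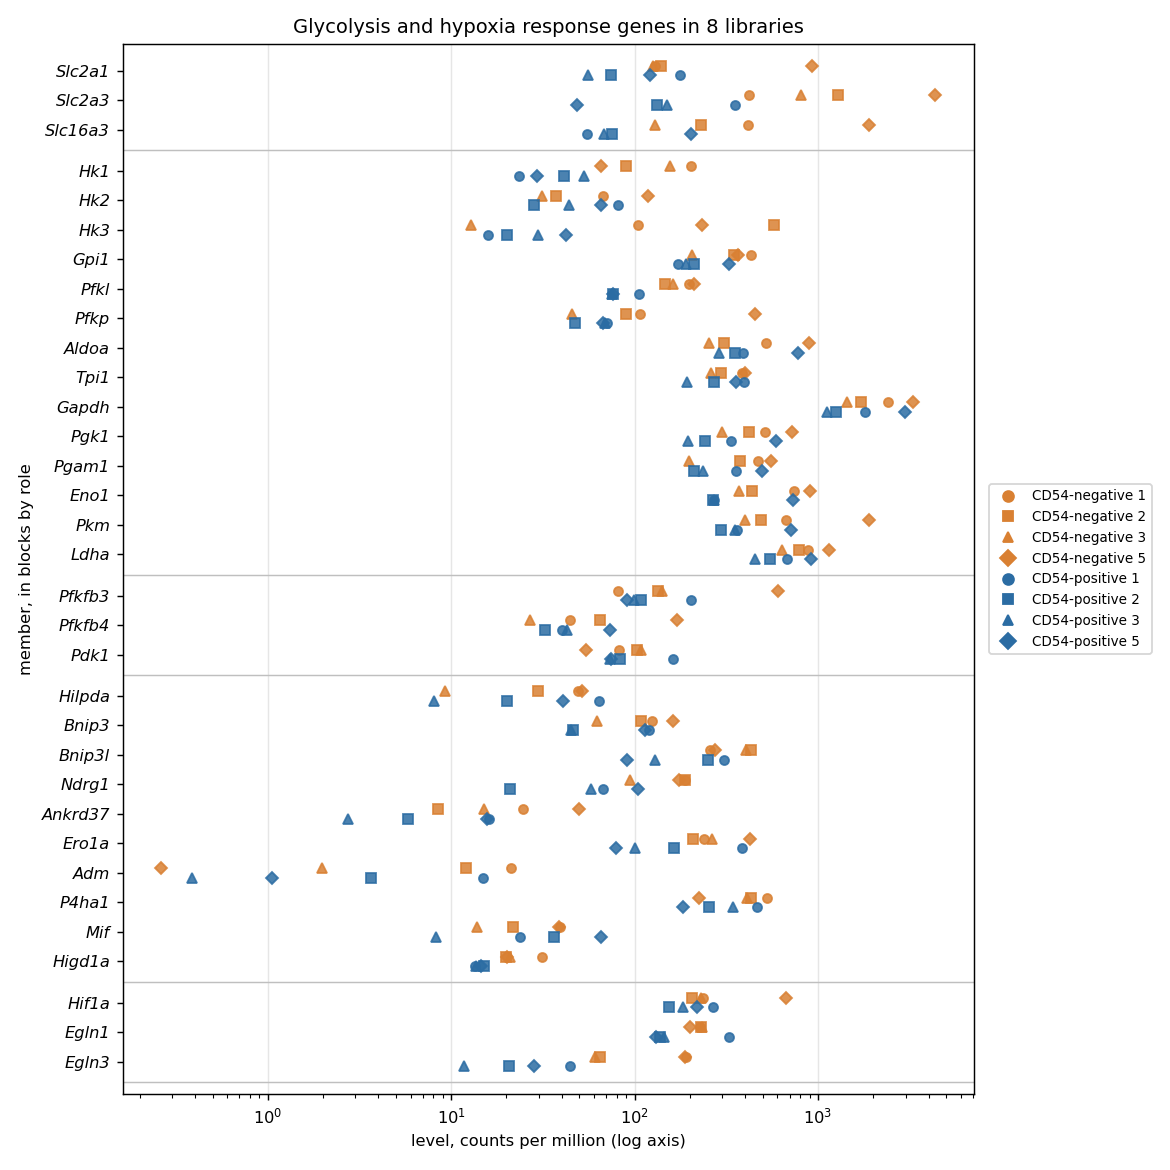
Level of each of the 33 genes in counts-per-million units (CPM; x, log axis) in the 8 libraries, 1 point per library, with CD54-negative in orange, CD54-positive in blue and the replicate number as the marker shape. Blocks from top to bottom are transporters, glycolytic enzymes, flux-regulating kinases, other HIF targets, and Hif1a with its hydroxylases. The orange diamond (CD54-negative replicate 5) is the highest point for 20 genes.

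The transporters move glucose in and lactate out of the cell. Slc2a3 encodes GLUT3, the high-affinity glucose transporter of neurons and leukocytes. Its level was 421, 1289, 805 and 4337 CPM in CD54-negative libraries 1, 2, 3 and 5, and 352, 133, 151 and 48.4 CPM in the CD54-positive libraries in the same order. All CD54-positive libraries were below all CD54-negative ones, with the closest values 352 and 421 CPM, both in libraries numbered 1. The log2 fold change was -3.33 ± 0.84 (SE, n = 4 against 4; edgeR adjusted p = 0.0763), and its 95% interval ran from -5.16 to -1.49. Without the library labelled CD54-negative replicate 5 it was -2.29 ± 0.62 (edgeR adjusted p = 0.0637), and over all fits that left out 1 library it lay between -3.92 and -2.29. Slc2a3 passed the threshold in DESeq2 (adjusted p = 0.000577), in limma-voom (adjusted p = 0.0197) and in edgeR with no filter on low counts (adjusted p = 0.0288), and in no fit that left out a library.

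Slc16a3 encodes MCT4, the exporter of lactate in strongly glycolytic cells. It was at 413, 229, 129 and 1898 CPM in the CD54-negative and 55.1, 75.6, 67.7 and 203 CPM in the CD54-positive libraries. The groups overlapped through 1 value on each side, since CD54-positive replicate 5 was above CD54-negative replicate 3. The log2 fold change was -2.73 ± 0.84 (edgeR adjusted p = 0.139), and -1.37 ± 0.55 without the library labelled CD54-negative replicate 5 (edgeR adjusted p = 0.181). Slc16a3 passed the threshold in DESeq2 (adjusted p = 0.00815) but not in limma-voom (adjusted p = 0.0527).

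Slc2a1 encodes GLUT1, the widely expressed glucose transporter and a well-known HIF target. It stood at 130, 139, 127 and 931 CPM in CD54-negative and at 177, 74.0, 55.8 and 121 CPM in CD54-positive libraries. The first 3 CD54-negative values were almost equal and the last was far above all others. The log2 fold change was -1.63 ± 0.73 (edgeR adjusted p = 0.289). Without that library it was -0.30 ± 0.44 (edgeR adjusted p = 0.749). The summed level of the 3 transporters was 964, 1657, 1061 and 7166 CPM in CD54-negative and 584, 283, 274 and 373 CPM in CD54-positive libraries, with no overlap.

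**Figure D2:**
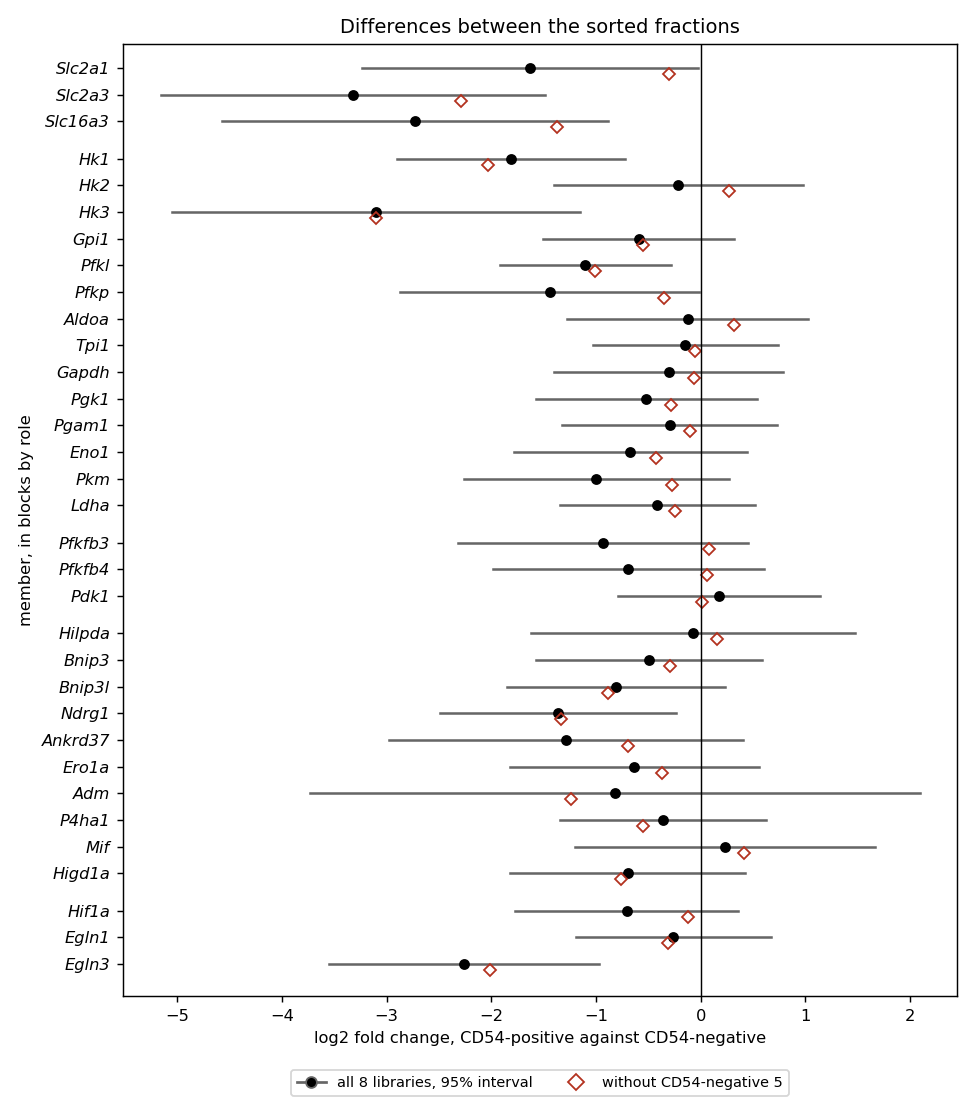
Log2 fold change of each gene, CD54-positive against CD54-negative (x), with its 95% interval from edgeR over all 8 libraries (black points and grey lines) and the value without the library labelled CD54-negative replicate 5 (open red diamonds). Most points lie left of 0, from -3.33 for Slc2a3 to 0.23 for Mif, and the diamonds of Slc2a1, Pfkp, Pkm and Pfkfb3 sit nearer to 0.

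The 14 glycolytic enzymes all had log2 fold changes below 0, from -3.10 to -0.13, with TMM scaling, though Hk2, Aldoa and Tpi1 were above 0 with library sizes alone, and Aldoa also with upper-quartile scaling. Without the library labelled CD54-negative replicate 5, Hk2 (0.27) and Aldoa (0.32) were above 0 too. Their differences were uneven: the hexokinases Hk1 and Hk3 and the phosphofructokinases, which act early in the pathway, had the largest over all 8 libraries. Without the library labelled CD54-negative replicate 5, Pfkp (-0.35) was nearer to 0 than Gpi1 (-0.55) and Eno1 (-0.43). In 9 of the 14 the difference was under 0.7 in size.

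Hexokinases trap glucose in the cell by phosphorylating it. Hk1, the housekeeping form, was at 204, 89.5, 157 and 65.5 CPM in CD54-negative and 23.4, 41.1, 53.0 and 29.3 CPM in CD54-positive libraries. These groups did not overlap in CPM, and here the library labelled CD54-negative replicate 5 was the lowest of its group. The log2 fold change was -1.81 ± 0.50 (edgeR adjusted p = 0.100), and without that library the difference was -2.03 ± 0.45 and was called (edgeR adjusted p = 0.0377). Hk3, the form typical of myeloid cells, was at 105, 577, 12.9 and 234 CPM in CD54-negative and 15.9, 20.2, 29.8 and 42.3 CPM in CD54-positive libraries. CD54-negative replicate 3 was the lowest of all 8 libraries and the other 3 were above every CD54-positive library. The log2 fold change of Hk3 was -3.10 ± 0.89 (edgeR adjusted p = 0.118), and without CD54-negative replicate 3 it was -3.50 and was called (edgeR adjusted p = 0.0335). With all libraries Hk3 passed the threshold in DESeq2 (adjusted p = 0.00351) but not in limma-voom (adjusted p = 0.122). Hk2, the form that HIF induces in many cell types, ranged from 31.3 to 119 CPM in CD54-negative and from 28.3 to 81.5 CPM in CD54-positive libraries, with a log2 fold change of -0.22 and a 95% interval from -1.41 to 0.97.

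Phosphofructokinase commits glucose to glycolysis. Pfkl, the liver-type subunit, was at 197, 147, 162 and 210 CPM in CD54-negative and 106, 76.4, 75.4 and 76.4 CPM in CD54-positive libraries. The groups did not overlap and the difference of -1.10 ± 0.37 (edgeR adjusted p = 0.171) changed little without any single library (-1.25 to -1.01). Pfkp, the platelet-type subunit, ranged from 45.7 to 451 CPM in CD54-negative and from 47.3 to 71.0 CPM in CD54-positive libraries, and its log2 fold change went from -1.44 to -0.35 without the library labelled CD54-negative replicate 5.

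By mean level per length, the enzymes from aldolase onward were more abundant than the hexokinases and phosphofructokinases. Gapdh, the dehydrogenase of the pathway, was at 2400, 1724, 1437 and 3279 CPM in CD54-negative and 1811, 1257, 1113 and 2968 CPM in CD54-positive libraries. In both groups the library numbered 5 was the highest and number 3 the lowest, and the groups overlapped (log2 fold change -0.31 ± 0.50; edgeR adjusted p = 0.798; 95% interval -1.40 to 0.79). Ldha, which makes lactate, was at 884, 785, 636 and 1146 CPM in CD54-negative and 678, 546, 451 and 914 CPM in CD54-positive libraries (log2 fold change -0.41 ± 0.43; edgeR adjusted p = 0.658; 95% interval -1.35 to 0.52). Without the library labelled CD54-negative replicate 5, Gapdh was at -0.06 and Ldha at -0.25. These intervals, over all 8 libraries, still hold 2-fold differences downward, so equality is not shown. Gpi1, Aldoa, Tpi1, Pgk1, Pgam1, Eno1 and Pkm, the remaining enzymes, had log2 fold changes from -1 (Pkm) to -0.13 (Aldoa) and edgeR adjusted p from 0.409 to 0.928. Without the same library Pgk1 was at -0.28, Pgam1 at -0.10 and Eno1 at -0.43. Pkm, pyruvate kinase, went to -0.27 without the library labelled CD54-negative replicate 5, where it stood at 1888 CPM against 398 to 666 CPM in the other 3.

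Several of these enzymes have near-identical copies in the mouse genome, and reads could be split between a gene and its copies. Of 12 copies looked up, 6 had an entry, among them Eno1b and Gapdh-ps15. These 6 summed to 1.47 to 4.42 CPM in any library, so little of the counted signal was placed on them. Reads placed on copies without an entry cannot be seen here.

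By mean level per length, in transcripts-per-million units (TPM), Gapdh was the most abundant enzyme and Ldha the next in both fractions. Gapdh was present with 3385 ± 880 TPM in CD54-negative and 2893 ± 1072 TPM in CD54-positive libraries (SD, n = 4), and Ldha with 915 ± 141 and 727 ± 148 TPM. Eno1 had 837 ± 276 and 559 ± 283 TPM and Aldoa 602 ± 268 and 599 ± 234 TPM. In both groups the values of Eno1 overlapped with those of Ldha and with those of Aldoa. By mean, hexokinases and phosphofructokinases were the lowest of the enzymes in both fractions. Hk3 had the highest mean of these 5 in CD54-negative libraries (147 ± 169 TPM), but was the highest only in replicate 2 (392 TPM). In CD54-negative replicate 3 it was the lowest of the 5 (8.41 TPM). In CD54-positive libraries Hk3 (18.1 ± 7.67 TPM) and Hk1 (18.6 ± 9.27 TPM) had the lowest means, and their values overlapped. Hk2 was at 30.8 ± 14.9 TPM in CD54-negative and 28.9 ± 9.58 TPM in CD54-positive libraries. Gapdh made up 38.7% to 42.4% of the summed TPM of the 14 enzymes in CD54-negative and 40.9% to 45.8% in CD54-positive libraries. The 14 enzymes together reached 9893, 7608, 5564 and 10550 TPM in CD54-negative and 5838, 5287, 5424 and 9775 TPM in CD54-positive libraries, and the groups overlapped.

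**Figure D3:**
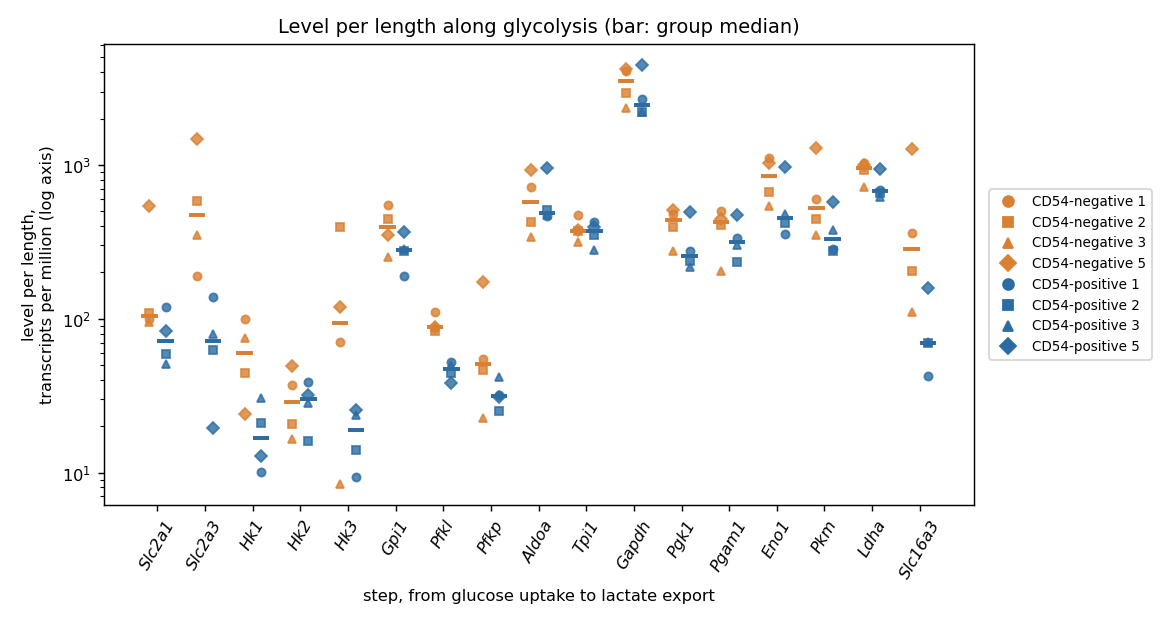
Level per length in TPM (y, log axis) of transporters and enzymes in the order of the pathway (x), from glucose uptake to lactate export, with 1 point per library and a bar at the median of each group. On this scale the groups do not overlap at Slc2a3 and Pfkl, and they overlap from Aldoa to Ldha.

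Flux-regulating kinases tune the pathway at 2 points. Pfkfb3 and Pfkfb4 make or remove fructose 2,6-bisphosphate, the activator of phosphofructokinase, and Pdk1 holds pyruvate back from the mitochondria by inhibiting pyruvate dehydrogenase. Pfkfb3 was at 81.1, 134, 142 and 604 CPM in CD54-negative and 203, 108, 99.8 and 90.7 CPM in CD54-positive libraries. Pfkfb4 was at 44.6, 64.4, 26.9 and 171 CPM and at 40.2, 32.4, 43.0 and 73.7 CPM. Both groups overlapped widely in both genes, and their highest value was in the library labelled CD54-negative replicate 5. Their log2 fold changes of -0.94 ± 0.63 and -0.69 ± 0.59 (edgeR adjusted p = 0.483 and 0.586) became 0.08 and 0.06 without it. Pdk1 was at 82.5, 104, 109 and 54.4 CPM in CD54-negative and 163, 83.2, 73.1 and 74.7 CPM in CD54-positive libraries. CD54-positive replicate 1 was the highest, and the log2 fold change was 0.17 ± 0.44 (edgeR adjusted p = 0.876).

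Among the 10 other HIF targets the groups overlapped in 9 on the CPM scale. Ndrg1, a stress-responsive gene that hypoxia induces in many cells, was at 188, 187, 94.9 and 175 CPM in CD54-negative and 67.4, 21.0, 58.0 and 104 CPM in CD54-positive libraries. Only CD54-positive replicate 5 and CD54-negative replicate 3 crossed, and the log2 fold change was -1.36 ± 0.51 (edgeR adjusted p = 0.212; past the threshold with limma-voom, -2.00, adjusted p = 0.0360). Ankrd37 was at 24.7, 8.48, 15.2 and 50 CPM in CD54-negative and 16.1, 5.80, 2.75 and 15.6 CPM in CD54-positive libraries (log2 fold change -1.29 ± 0.77; edgeR adjusted p = 0.425; -0.69 without the library labelled CD54-negative replicate 5).

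Bnip3 and Bnip3l encode mitochondrial receptors for mitophagy. Bnip3l was at 256, 429, 402 and 275 CPM in CD54-negative and 306, 252, 130 and 90.9 CPM in CD54-positive libraries, with CD54-positive replicate 1 inside the range of the other group (log2 fold change -0.81 ± 0.48; edgeR adjusted p = 0.418). Bnip3 spanned 62.6 to 162 CPM in CD54-negative and 45.0 to 120 CPM in CD54-positive libraries, a difference of -0.49 ± 0.49 on the log2 scale (edgeR adjusted p = 0.650). Higd1a, a mitochondrial protein gene of the hypoxia response, did not overlap in CPM between the groups: 31.1, 19.8, 21.0 and 20.2 CPM stood against 13.5, 15.03, 13.6 and 14.6 CPM. Its log2 fold change was nonetheless small and not past the threshold (-0.70 ± 0.51; edgeR adjusted p = 0.522).

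P4ha1, a collagen prolyl hydroxylase subunit, and Mif, a cytokine, had the highest level per length of the other HIF targets over all 8 libraries, with 204 and 169 TPM. In CD54-negative libraries alone Mif, at 153 ± 64.2 TPM, came after P4ha1 (226 ± 90.2), Bnip3l (206 ± 68.7) and Ero1a (176 ± 31.8), all within their spread (SD, n = 4). P4ha1 was at 530, 433, 412 and 224 CPM in CD54-negative and 462, 255, 345 and 184 CPM in CD54-positive libraries. In each group the library numbered 1 was the highest and number 5 the lowest (log2 fold change -0.36 ± 0.45; edgeR adjusted p = 0.727). Mif was at 39.3, 21.8, 13.8 and 38.6 CPM and at 23.7, 36.2, 8.26 and 65.3 CPM, and was the only other HIF target with a value above 0 (0.23 ± 0.65; edgeR adjusted p = 0.892), which was below 0 with limma-voom (-0.03). Hilpda, which blocks lipolysis in lipid droplets, and Ero1a, an oxidase of protein folding, had log2 fold changes of -0.07 (0.12 with library sizes alone) and -0.64, and of 0.16 and -0.37 without the library labelled CD54-negative replicate 5. Adm, which encodes the vasodilator adrenomedullin, ran from 0.263 to 21.1 CPM in CD54-negative and from 0.386 to 14.96 CPM in CD54-positive libraries (log2 fold change -0.82 ± 1.33; edgeR adjusted p = 0.797; -1.24 without the library labelled CD54-negative replicate 5). Its highest and lowest libraries differed 80.4-fold, second among the 33 to Slc2a3 (89.7-fold). The lowest value of Adm, 0.263 CPM in the library labelled CD54-negative replicate 5, was near the floor, so its ratio is imprecise.

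Hif1a, the oxygen-regulated subunit itself, was at 237, 205, 231 and 672 CPM in CD54-negative and 267, 155, 184 and 218 CPM in CD54-positive libraries. Apart from the library labelled CD54-negative replicate 5, all values lay within 155 to 267 CPM. The log2 fold change was -0.71 ± 0.49 (edgeR adjusted p = 0.490), and -0.12 ± 0.35 without that library (edgeR adjusted p = 0.884). HIF-1 alpha is regulated mainly through protein stability, which mRNA does not measure.

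Egln1 and Egln3 encode the prolyl hydroxylases PHD2 and PHD3, which mark HIF-1 alpha and are themselves HIF targets. Egln3 was at 190, 64.9, 60.5 and 189 CPM in CD54-negative and 44.5, 20.7, 11.8 and 28.3 CPM in CD54-positive libraries, with no overlap. Its log2 fold change of -2.26 ± 0.59 (edgeR adjusted p = 0.0841), was the second of all members by p, after Slc2a3, and lay between -2.65 and -1.99 when any library was left out (edgeR adjusted p from 0.0685 to 0.235). It passed the threshold in DESeq2 (adjusted p = 0.00512) and in limma-voom (adjusted p = 0.0262). Egln1 was at 226, 229, 232 and 200 CPM and at 327, 137, 145 and 130 CPM. CD54-positive replicate 1 was above and the other 3 CD54-positive libraries were below all CD54-negative ones (log2 fold change -0.26 ± 0.43; edgeR adjusted p = 0.796).

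Shares among related genes do not depend on how libraries are scaled, and 9 such shares were computed from the levels per length. They were tested over the 70 possible assignments of the libraries (exact permutation, two-sided). In 3 of the 9 the groups did not overlap. Slc2a3 made up 65.4%, 84.4%, 78.7% and 73.1% of Slc2a1 and Slc2a3 together in CD54-negative libraries, and 53.6%, 51.2%, 61.2% and 18.9% in CD54-positive ones. Egln1 made up 50.5%, 75.1%, 76.6% and 47.6% of Egln1 and Egln3 in CD54-negative libraries and 86.3%, 85%, 91.3% and 79.7% in CD54-positive ones. Hk2 made up 17.8%, 4.54%, 16.7% and 25.5% of the 3 hexokinases in CD54-negative libraries and 66.9%, 31.5%, 34.4% and 45.6% in CD54-positive ones. For each of these 3 the exact p was 0.0286, the smallest that 4 against 4 can give, and 0.0857 when adjusted over the 9 shares. Groups of 4 that do not overlap always give this exact p. The shares were chosen with earlier results of these data known, so these p-values are no independent support. Slc2a3 and Egln3 themselves did not overlap in CPM. Hk2 differed by -0.22 on the log2 scale, while Hk1 and Hk3 differed by -1.81 and -3.10. The shares of Hk1, Hk3, Pfkl, Pfkfb3, Bnip3l and Gapdh overlapped between the groups (exact p from 0.143 to 0.857).

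**Figure D4:**
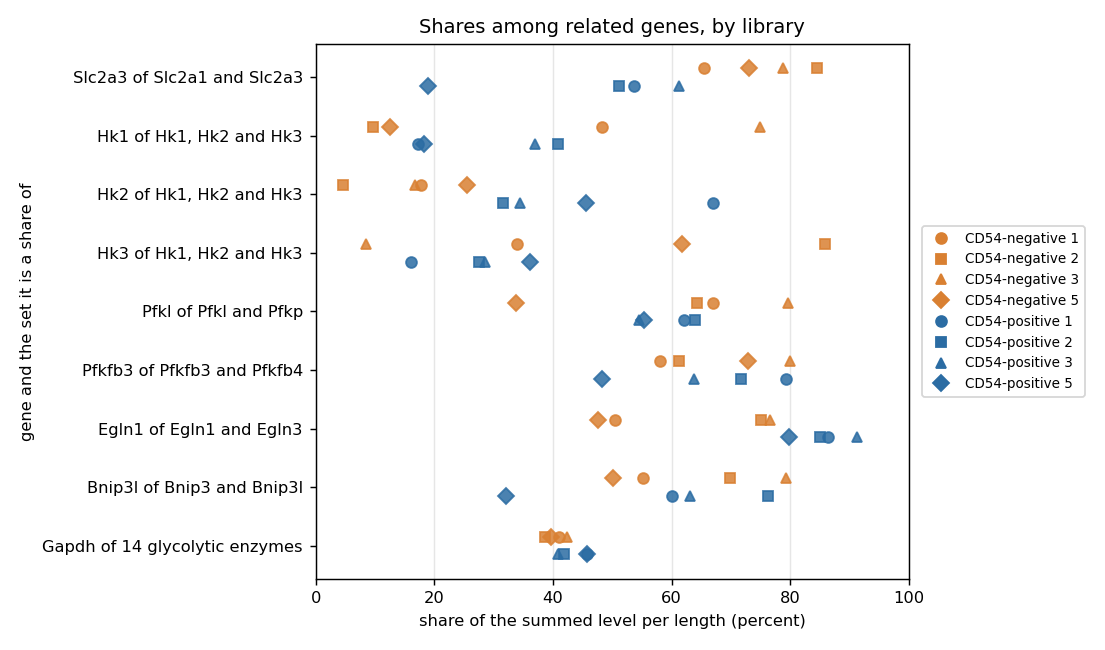
Share of a gene in the summed level per length of a set of related genes (x, percent), 1 point per library, for 9 shares. Blue and orange points separate for Slc2a3, Hk2 and Egln1, where the CD54-positive libraries run from 18.9% to 61.2%, 31.5% to 66.9% and 79.7% to 91.3%.

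Other genes of these pathways were read from lists of names. Of 31 tested genes of glycolysis and pyruvate handling outside the 33, 1 fell (0.273% of all genes tested did) and none rose (1.22%), with a median log2 fold change of -0.19. The gene that fell was Adpgk, an ADP-dependent glucokinase. It had 132 ± 36.0 CPM in CD54-negative and 34.4 ± 10.2 CPM in CD54-positive libraries (SD, n = 4), with no overlap (log2 fold change -1.94 ± 0.43; edgeR adjusted p = 0.0496). The call held in 4 of 17 alternative fits, and in 1 of the 8 that left out a library (edgeR adjusted p from 0.0404 to 0.153), with values from -2.12 to -1.60 throughout. Pfkfb1, the liver form of the Pfkfb kinases, was at 0 to 0.1597 CPM in CD54-negative libraries, under the detection floor or near it, and at 1.88 to 4.92 CPM in CD54-positive ones (edgeR adjusted p = 0.0816). None of 49 tested genes of the HIF pathway passed the threshold (median -0.59). At an unadjusted p under 0.05, 7 of them were lower (14.3%, against 8.96% of all genes tested) and none higher (against 7.96%). The foremost were Bhlhe40, a hypoxia-responsive repressor, with 1639 ± 388 CPM in CD54-negative and 619 ± 115 CPM in CD54-positive libraries (edgeR adjusted p = 0.132), and Ppp1r3b, a glycogen-targeting phosphatase subunit, with 371 ± 510 and 61.1 ± 13.9 CPM (edgeR adjusted p = 0.140). Ppp1r3b was at 1135 CPM in the library labelled CD54-negative replicate 5 and at 85.1 to 132 CPM in the other 3, and its log2 fold change went from -2.60 to -0.93 without that library.

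The pentose phosphate pathway branches from glycolysis and supplies NADPH, which the neutrophil oxidase uses. None of its 8 tested genes passed (median -0.34). G6pdx, its entry enzyme, was at 153, 208, 96.4 and 223 CPM in CD54-negative and 47.7, 44.0, 83.8 and 73.6 CPM in CD54-positive libraries, with no overlap (log2 fold change -1.45 ± 0.44; edgeR adjusted p = 0.135), and Rpe had a value of -0.92 ± 0.45 (edgeR adjusted p = 0.326). None of 12 tested glycogen genes passed either (median -0.54). The first of them by p were Pygl, glycogen phosphorylase, with 369 ± 330 CPM in CD54-negative and 70.9 ± 27.7 CPM in CD54-positive libraries (edgeR adjusted p = 0.132), and Pgm1 (edgeR adjusted p = 0.282). Pygl was highest, at 831 CPM, in the library labelled CD54-negative replicate 5, and its log2 fold change went from -2.38 to -1.60 without it.

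Cell type markers moved with the sort by more than most of these genes. The 16 neutrophil markers had a median log2 fold change of -3.36, with 7 lower and none higher, and the 16 macrophage markers a median of 3.05, with 10 higher and none lower. Of the other marker lists, 1 fibroblast gene was called lower and 1 T and NK cell and 1 erythroid or platelet gene higher, while none of the B cell, dendritic cell, endothelial or epithelial markers was called. All 6 tested dendritic cell markers and all 7 tested B and plasma cell markers had values above 0, with medians of 2.18 and 2.39. Dendritic cell markers summed to 25.4 to 195 CPM in CD54-negative and 236 to 522 CPM in CD54-positive libraries, and T and NK cell markers to 2.28 to 59.4 and 67.5 to 366 CPM, both without overlap. Fibroblast markers summed to 1801 to 2780 CPM in CD54-negative and 463.5 to 2023 CPM in CD54-positive libraries, with overlap. In every CD54-negative library the fibroblast sum was above the macrophage sum. Of the 33 genes, Slc2a3 and Hk3 had differences near the neutrophil median over all 8 libraries, and Slc16a3 and Egln3 came next. Without the library labelled CD54-negative replicate 5 the neutrophil median was -3.09. In that fit Hk3 was at -3.10, Slc2a3 at -2.29, Hk1 at -2.03, Egln3 at -2.01 and Slc16a3 at -1.37. The library labelled CD54-negative replicate 5 had the highest neutrophil marker sum, 44930 CPM, and the highest transporter sum. Its macrophage marker sum, 1220 CPM, was the highest of the CD54-negative libraries and below every CD54-positive one, unlike its Icam1 level. Among 8 epithelial and mammary tumour markers in the table, none was at 1 CPM or more in every CD54-negative library, and their sums ran from 23.8 to 148 CPM in CD54-negative and 14.6 to 25.7 CPM in CD54-positive libraries. How far cell composition enters the differences of the 33 genes was not tested.

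**Figure D5:**
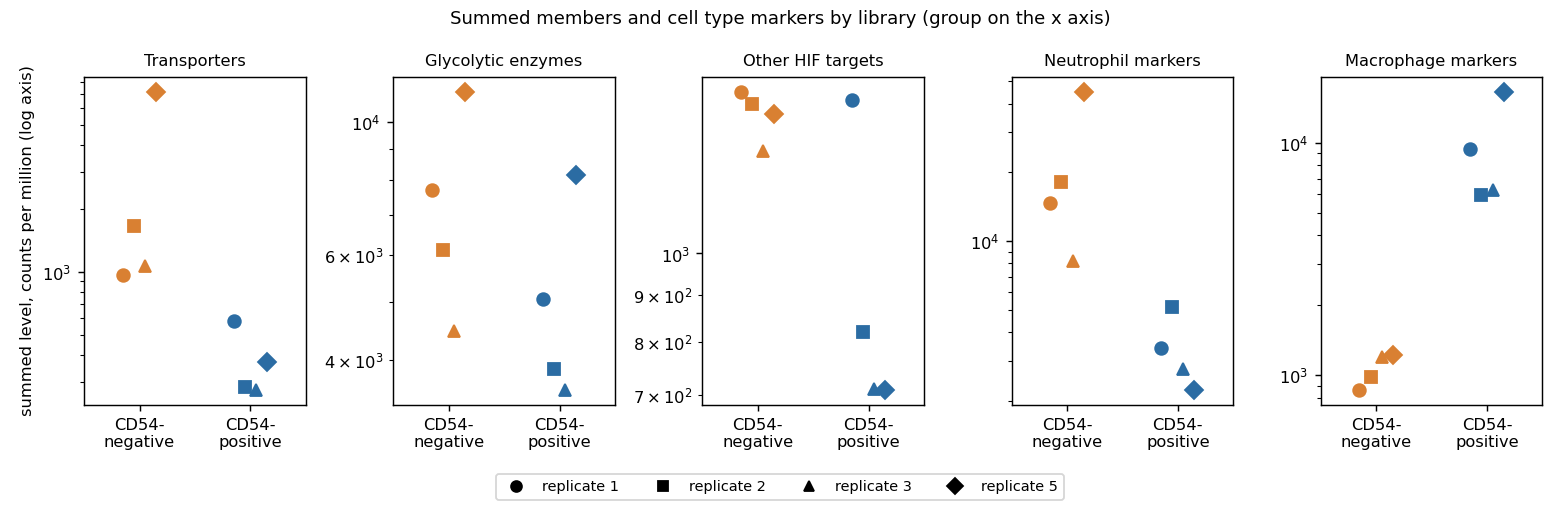
Summed level in CPM (y, log axis, a scale of its own in each panel) of 3 groups of the genes and of neutrophil and macrophage markers, by sorted fraction (x), 1 point per library with the replicate number as the marker shape. Transporters (274 to 584 CPM in CD54-positive) and neutrophil markers separate downward, macrophage markers upward, and the enzymes and other HIF targets overlap.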

How the data were processed

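Total RNA was sequenced in 8 libraries labelled as neutrophils. The submitters' processing notes name Trim Galore 0.6.6, Salmon 1.9.0 and the build GRCm39 (mm39); the sources used here do not say which annotation was used or how transcripts were summed. The authors deposited estimated counts per gene with gene lengths, per the file headers and labels. Of 25669 rows, repeats of 88 identifiers with identical values were dropped. Counts were rounded and genes filtered by filterByExpr (13575 kept), scaled by TMM and tested with edgeR 4.0.16 in R 4.3.3 (estimateDisp, glmQLFit, glmQLFTest, robust; group the only term; Benjamini-Hochberg over all tested genes, threshold 0.05). SE is the log2 fold change divided by the square root of F. CPM uses TMM-adjusted library sizes; TPM uses the deposited lengths. Fits were tested on simulated data.

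The members, the lists and the shares among related genes were chosen with earlier results of these data known. Values in every library are given for Hif1a and, per role, for the 3 genes with the smallest p and the 2 highest per length, and for a few others where a count needs them; of other lists, for genes past the threshold and the 2 with the smallest p. The labels do not say whether each library is a separate animal, and the p-values reflect no more than the variation among the libraries, in part possibly technical. Same-numbered libraries deviated together with correlations of -0.18, 0.11, 0.17 and 0.37. Alternatives were other scalings and filters, DESeq2 1.42.0, limma-voom with sample weights (limma 3.58.1), a replicate term and leaving out libraries, which were added for the named pathway genes once their values were known.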

Additional observations from a re-analysis of the deposited data

Results flagged for a closer look

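In 10 of 66 sets of 4 values (33 genes in 2 groups, on log2 of CPM + 1), 1 library stood far from the other 3 of its group by Dixon's test at the 95% level. About 1 in 20 would by chance if the sets were independent and normally distributed. These sets share the same 8 libraries, and the share over all genes tested is not given, so no excess particular to these genes is shown. In the library labelled CD54-negative replicate 5, Slc2a1 (931 CPM, others 127 to 139) and Hif1a (672 CPM, others 205 to 237) were high and Egln1 was low (199.8 CPM, others 226 to 232). In CD54-positive replicate 1, Pfkl (106 CPM, others 75.4 to 76.4), Pdk1 (163 CPM, others 73.1 to 83.2) and Egln1 (327 CPM, others 130 to 145) were high. Eno1 was high in CD54-positive replicate 5 (728 CPM, others 268 to 271) and Pfkp low in CD54-positive replicate 2 (47.3 CPM, others 67.5 to 71.0). Ndrg1 was low in CD54-negative replicate 3 (94.9 CPM, others 175 to 188) and Higd1a high in CD54-negative replicate 1 (31.1 CPM, others 19.8 to 21.0).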

How the results depend on the processing

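Genes called higher and lower, 166 and 37, became 258 (higher) with library sizes only, 584 and 642 with DESeq2, 480 and 376 with limma-voom, 120 (lower) with no filter, 61 (lower) with the filter of 10 CPM, and 190 (lower) without both libraries numbered 5. Leaving out 1 library gave 4 to 337 higher and 0 to 241 lower. With the replicate number as a block, 280 were higher and 261 lower, and 1 member, Egln3 (-2.21, adjusted p = 0.0323); the pairing is not given by the labels, and libraries numbered 1 did not match best with each other. Members called lower, 0 with edgeR, were 5 with DESeq2 (no adjusted p for Slc2a1), 4 with limma-voom, 1 with no filter, and 0 to 1 when 1 library was left out. The cause was not tested. Medians over all members (-0.69) moved to -0.40 with library sizes only and -0.45 without both libraries numbered 5; those of enzymes and other HIF targets moved to -0.32 and -0.45 with library sizes only. Leaving out 1 library gave -0.77 to -0.31 for all members, -3.07 to -1.37 for transporters, -0.85 to -0.28 for enzymes and -0.94 to -0.43 for other HIF targets. Upper-quartile scaling moved the median of all genes by 0.13 and library sizes only by 0.24. Directions turned for small differences: Aldoa (0.01) and Hilpda (0.02) with upper-quartile scaling; Hk2 (0.06), Aldoa (0.16), Tpi1 (0.07) and Hilpda (0.12) with library sizes only; Pdk1 (-0.06) and Mif (-0.03) with limma-voom; Hk2 (0.18), Pfkfb3 (0.22), Hilpda (0.06) and Mif (-0.13) without both libraries numbered 5. When 1 library was left out, the ranges crossed 0 for Hk2 (-0.48 to 0.27), Aldoa (-0.48 to 0.32), Tpi1 (-0.32 to 0.03), Pfkfb3 (-1.25 to 0.08), Pfkfb4 (-0.97 to 0.06), Pdk1 (-0.20 to 0.31), Hilpda (-0.63 to 0.26), Adm (-2.39 to 0.07) and Mif (-0.29 to 0.56). Precision was limited by 4 libraries a group and a biological coefficient of variation of 0.858; the median SE of the members' log2 fold changes was 0.51.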
